A study of Mus musculus with 2 samples.

Results

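Transcripts of 6 genes of neurotrophin signalling were described in the hippocampus of mice at postnatal day 10. They are the ligand genes Bdnf and Ntf3, the Trk receptor tyrosine kinase genes Ntrk2 and Ntrk3, the p75 neurotrophin receptor gene Ngfr and the sortilin gene Sort1. Members were chosen by symbol, each symbol matched 1 gene, and together they made up 6 of 55536 annotated genes and 48 of 141864 annotated transcripts. The RNA was total RNA of B6CASTF1/J hybrids, which carry a C57BL/6J and a CAST/EiJ genome, in 1 group of 2 libraries that the labels number as biological replicates 1 and 2. Each library was labelled male, started from 300 ng of RNA and received ERCC spike-in RNA. The labels of each name 3 males and do not spell out whether a library is a pool. No treatment or engineered allele is named, and with 1 group no conditions were compared.

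Neurotrophins are secreted growth factors that are cut from longer precursors. BDNF binds TrkB, the product of Ntrk2, and neurotrophin-3 binds TrkC, the product of Ntrk3. Full-length Trk receptors carry an intracellular tyrosine kinase and signal through adaptor proteins, whereas truncated forms keep the ligand-binding part and lack the kinase. The mature neurotrophins also bind p75, and their precursors bind p75 together with sortilin. In hippocampus these proteins are known for roles in neuron survival, dendrite growth and synaptic plasticity, and truncated TrkB is the main form in astrocytes.

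The alignment-based tables held 32035705 expected counts in replicate 1 and 29747193 in replicate 2. In replicate 2 the sex-linked genes went against the label, with 30841 counts of Xist and 0 to 2 counts of each of 4 chromosome Y genes, so it is the library labelled male, replicate 2. Replicate 1 had 25 counts of Xist and 764 to 2164 of each of those Y genes. The 7 genes listed for hippocampal excitatory neurons all reached a level of 1 TPM in both libraries, among them Prox1 at 47.7 and 49.56 TPM. In all, 13048 protein-coding genes reached that level, so it cannot tell hippocampus from other tissue. TPM, the transcript abundance after division by length, is the scale for all comparisons between genes or transcripts. These are bulk libraries, so fewer cells of a type and less RNA per cell cannot be told apart.

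The 3 receptor genes Ntrk2, Sort1 and Ntrk3 stood far above the ligand genes, and Ngfr was lowest. Ntrk2 had a level of 111.2 TPM in replicate 1 and 113.7 in replicate 2, a mean of 112.5 ± 1.74 TPM (SD, n = 2). Sort1 had 81.5 and 86.27 TPM, a mean of 83.88 ± 3.37. Ntrk3 had 77.52 and 80.54 TPM, a mean of 79.03 ± 2.13. All 3 were thus within a narrow band, with 90.7% to 94.1% of the 13048 detected protein-coding genes below them. Bdnf, at 13.25 and 14.77 TPM, lay near the middle of that distribution, with 46.1% of those genes below it. Ntf3 had 3.86 and 5.11 TPM, with 18.3% below it. Ngfr had 1.07 and 1.23 TPM, with 0.475% below it, so it was barely above the 1 TPM that defined detection.

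The TPM ranges of neighbours in this order did not overlap over the libraries, but n was 2 and the step between Sort1 and Ntrk3 was small. Sort1 over Ntrk3 was 1.06 ± 0.014, and the deposited credibility intervals of these genes overlapped within replicate 1 (77.58 to 80.46 TPM for Sort1, 74.85 to 84.58 for Ntrk3) and within replicate 2 (81.95 to 84.99 and 77.75 to 88.52). Those intervals surround the posterior mean, which was 79.02 TPM for Sort1 and 79.53 for Ntrk3 in replicate 1. In replicate 2 it was 83.45 and 82.97, so by posterior mean the order of these genes differed between the libraries. On the TPM scale, Ntrk2 over Sort1 was 1.34 ± 0.0332. A wide gap followed, with Ntrk3 over Bdnf at 5.65 ± 0.281, then Bdnf over Ntf3 at 3.16 ± 0.383 and Ntf3 over Ngfr at 3.88 ± 0.387. From top to bottom, Ntrk2 over Ngfr was 98.2 ± 8.15. A second table made from the FASTQ file gave the same order, with Ntrk2 at 167.6 ± 2.06 TPM and Ngfr at 1.79 ± 0.242.

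**Figure D1:**
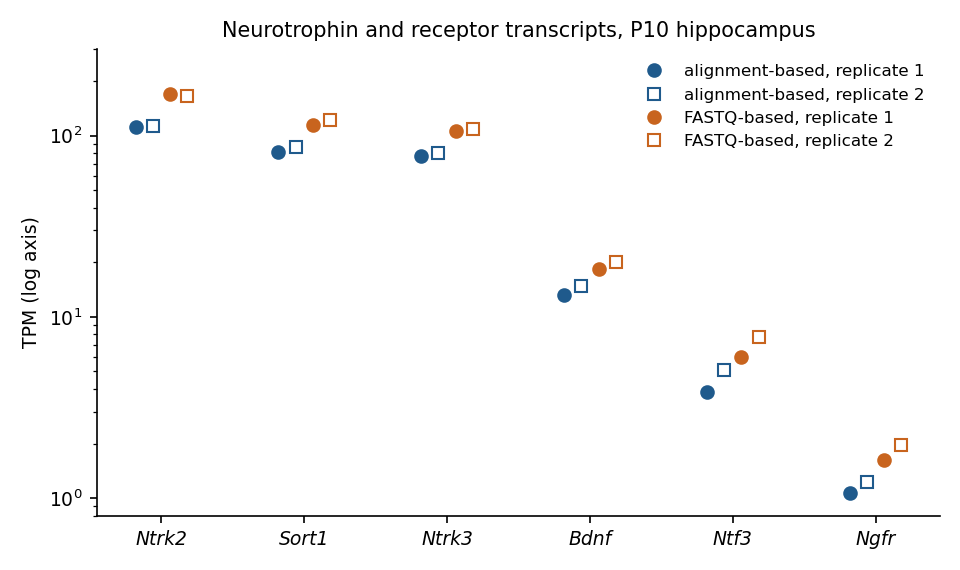
Level in TPM (log axis) of the 6 genes in each library, by the alignment-based (blue) and FASTQ-based (orange) tables, with filled circles for replicate 1 and open squares for replicate 2. Ntrk2, Sort1 and Ntrk3 lie between 77.52 and 113.7 TPM in the alignment-based table, Bdnf at 13.25 and 14.77, and Ngfr at 1.07 and 1.23.

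Bdnf (ENSMUSG00000048482.14, chr2:109674700-109727007 on mm10, plus strand) encodes brain-derived neurotrophic factor. Its 11 annotated transcripts join 1 of 8 alternative first exons to a shared last exon of 3626 bases (chr2:109723382-109727007) that holds all or most of the coding sequence of the precursor. The first exons, numbered I to VIII in genomic order, span 81 to 640 bases, so most of each transcript is common to all and reads there cannot separate them. Each first exon has its own promoter, and the promoter before exon IV is known for its response to neuronal activity through the factor CREB. It is printed because exon IV held the second-highest share of Bdnf in the alignment-based table, though not from FASTQ, and because it was the Bdnf promoter in the table that held a CREB half-site (CGTCA, in capitals).
Bdnf promoter IV: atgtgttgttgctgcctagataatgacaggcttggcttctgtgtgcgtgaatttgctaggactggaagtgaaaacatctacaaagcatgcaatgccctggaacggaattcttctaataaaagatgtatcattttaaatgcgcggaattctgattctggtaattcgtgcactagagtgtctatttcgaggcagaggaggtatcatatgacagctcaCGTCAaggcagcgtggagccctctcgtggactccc
The sequence is from RefSeq on GRCm38.p6, plus strand, and covers the 250 bases before the exon IV start, chr2:109692186-109692435. The promoters before exons I, III, V, VII and VIII, also in that table, held no CGTCA, and no Bdnf promoter there held the full CREB site TGACGTCA or the E-box CACGTG. Promoters II and VI were not searched. On both strands, CGTCA occurred in 17.75% of 32817 mouse promoters of the same length, TGACGTCA, which contains it, in 1.548%, and CACGTG in 6.021%. These matches are descriptions of letters and were not tested as sites.

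Transcripts from exons VI and IV held most of the Bdnf RNA in the alignment-based table, followed by exons II and I. The exon VI transcript Bdnf-205 had 4.53 TPM in replicate 1 and 7.37 in replicate 2, or 34.21% and 49.93% of summed Bdnf TPM. The exon IV transcript Bdnf-209 had 4.23 and 3.23 TPM, or 31.95% and 21.88%. In replicate 1 these transcripts were close, and in the library labelled male, replicate 2, exon VI was the higher.

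The deposited intervals of Bdnf-205 did not overlap between the libraries, at 2.875 to 5.23 TPM and 5.54 to 8.035 TPM. That was the case for 1 of the 27 member transcripts with a mean TPM of at least 0.5, and for 2.44% of the 53339 transcripts of the whole table with that mean. The member share, 1 of 27, is close to that background. For Bdnf-209 the intervals overlapped, at 2.701 to 4.83 and 1.913 to 3.835 TPM.

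The other first exons contributed less. Exon II transcripts, Bdnf-207 and Bdnf-210 by level, held 15.26% and 13.48%, and the exon I transcript Bdnf-201 held 8.69% and 8.67%. Exons III, VII and VIII held 1.76% to 4.61% each, and the exon V transcript was listed at 0 in both libraries by both tables.

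The share of exon VI was highest in both libraries by both tables, and the shares of exons IV and VIII depended on the table. From FASTQ, exon VI held 41.05% and 56.34%, and exon IV 10.75% and 16.99%, the opposite order of the libraries for exon IV. Exon VIII transcript Bdnf-202 had 3.624 TPM from FASTQ in replicate 1, 19.83% of Bdnf, against 0.33 TPM by alignment, and under 0.001 TPM from FASTQ in replicate 2. For exon II the FASTQ shares were 19.61% and 17.02%, and for exon I 8.67% and 9.65%. Averaged over the libraries, the alignment-based shares were 42.07% ± 11.1 for exon VI, 26.92% ± 7.12 for exon IV, 14.37% ± 1.26 for exon II and 8.68% ± 0.0097 for exon I. In that table the spread between the libraries was largest for the 2 exons with the highest shares, and from FASTQ it was largest for exon VIII.

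**Figure D2:**
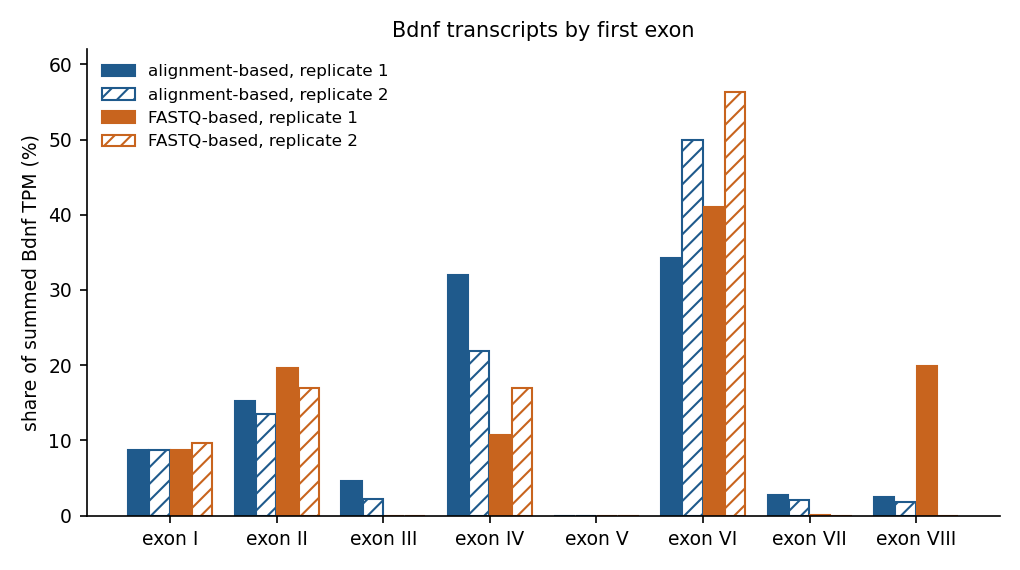
Share of summed Bdnf TPM (percent, bars from 0) by first exon, for the alignment-based (blue) and FASTQ-based (orange) tables, solid for replicate 1 and hatched for replicate 2. Exon VI has the tallest bar in each library and table (34.21% to 56.34%), while exon IV ranges from 10.75% to 31.95% and the exon VIII bar reaches 19.83% in a single case.

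Ntf3 (ENSMUSG00000049107.13, chr6:126101412-126166910, minus strand) encodes neurotrophin-3. Its gene total was 105 and 128 expected counts, so its transcript split rests on few reads. By alignment, Ntf3-203 held most of it, at 3.03 and 5.11 TPM, with Ntf3-202 at 0.82 and 0 TPM and Ntf3-201 listed at 0. From FASTQ, Ntf3-202 led instead, at 3.401 and 6.054 TPM, with Ntf3-201 at 1.162 and 1.646. The 2 tables thus assigned the Ntf3 reads to different transcripts, and no leading transcript can be given. In the RefSeq table, 1 of its 2 promoters held CACGTG.

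Ntrk2 (ENSMUSG00000055254.15, chr13:58806569-59133970, plus strand) encodes TrkB. Of its 10 transcripts, Ntrk2-201 and Ntrk2-207 code for the full-length receptor of 821 codons and contain the kinase, and Ntrk2-202 and Ntrk2-204 code for 476 codons and end without it. The latter end is that of TrkB.T1, whose short tail is encoded by an exon of its own. The coding ends are printed because they set the forms apart: each starts at the base where the truncated coding sequence leaves the full-length one, and capitals mark the stop codon.
Ntrk2-202 own coding end: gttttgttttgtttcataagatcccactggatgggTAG
Ntrk2-201 after the same base: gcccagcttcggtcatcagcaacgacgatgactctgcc
Ntrk2-205 own coding end: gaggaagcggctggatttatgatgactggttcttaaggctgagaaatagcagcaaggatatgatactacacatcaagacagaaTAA
The T1 end lies at chr13:58932023-58932057 before its stop codon and adds 11 complete codons, and full-length Ntrk2-201 continues from that junction at chr13:58985802-58985839. Ntrk2-205, a further truncated form of 492 codons, ends at chr13:58878339-58878421 before its stop codon. These sequences are from the GENCODE M21 transcripts on mm10.

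Full-length and truncated TrkB transcripts were present at similar levels. Ntrk2-201 had 39.56 and 38.8 TPM, and Ntrk2-207 had 14.19 and 15.77. On the truncated side, Ntrk2-202 had 35.58 and 33.51 TPM and Ntrk2-204 had 6.43 and 9.14. Ntrk2-205 had 10.19 and 11.18 TPM. Of these 5, Ntrk2-204 differed most between the libraries, and no Ntrk2 transcript had intervals apart.

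Kinase-coding transcripts held 48.75% and 48.42% of the TPM of the 8 Ntrk2 transcripts with a coding sequence, a mean of 48.58% ± 0.235 (SD, n = 2). Summed, they stood at 54.16 ± 0.58 TPM against 42.33 ± 0.452 for transcripts with the T1 end and 13.49 ± 0.0495 for the other truncated forms Ntrk2-205, Ntrk2-208 and Ntrk2-209. The ratio of kinase-coding to T1 transcripts was 1.279 in each library, and 1.29 ± 0.0365 from FASTQ. From expected counts, which are not divided by length, the kinase-coding share was 58.66%. Ntrk2-201 is 8744 bases long and Ntrk2-202 is 6846. The near-even balance thus held in both tables on the TPM scale and not on the count scale.

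Ntrk3 (ENSMUSG00000059146.12, chr7:78175959-78738012, minus strand) encodes TrkC and has 20 annotated transcripts. Ntrk3-201 codes for the full-length receptor of 825 codons. Ntrk3-205 (839 codons) and Ntrk3-206 (864 codons) carry inserts within the kinase-coding part, a kind of TrkC form known to alter kinase signalling. Ntrk3-202 codes for 612 codons and leaves the full-length sequence before the kinase. Its own end and the inserts are printed because they are the coding differences among the forms, with capitals for the stop codon in the first and for the inserts in the others.
Ntrk3-202 own coding end: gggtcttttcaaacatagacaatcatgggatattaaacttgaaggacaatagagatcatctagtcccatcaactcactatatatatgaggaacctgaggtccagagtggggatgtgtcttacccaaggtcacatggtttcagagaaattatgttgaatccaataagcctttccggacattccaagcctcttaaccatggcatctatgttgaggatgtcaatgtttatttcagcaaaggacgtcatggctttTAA
Ntrk3-205 insert: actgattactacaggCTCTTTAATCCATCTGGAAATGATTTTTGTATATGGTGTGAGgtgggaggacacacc
Ntrk3-206 further insert: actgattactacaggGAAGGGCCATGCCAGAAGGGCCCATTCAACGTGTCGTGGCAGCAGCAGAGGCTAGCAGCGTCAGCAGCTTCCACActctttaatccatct
The truncated end spans 2 exons, chr7:78304292-78304426 and chr7:78302632-78302747, and adds 83 complete codons. The insert shared by both longer forms is 42 bases or 14 codons at chr7:78204103-78204144, after codon 711. Ntrk3-206 has 75 further bases or 25 codons before it, at chr7:78229487-78229561. These are minus-strand coding sequences from the same source.

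As for TrkB, kinase-coding and truncated TrkC transcripts stood close to each other. Ntrk3-201 had 22.85 and 22.22 TPM, Ntrk3-205 had 10.85 and 10.57, and Ntrk3-206 had 1.25 and 1.16. The truncated Ntrk3-202 had 28.11 and 28.43 TPM and was the highest single Ntrk3 transcript. By alignment, libraries differed by little for each of the 4, and no Ntrk3 transcript had intervals apart. From FASTQ, Ntrk3-205 had 7.46 and 10.46 TPM, and Ntrk3-206 had 6.137 and 4.491, well above its alignment-based values. The TPM of Ntrk3-201 lay above its own deposited interval in both libraries, 21.63 to 22.58 and 20.97 to 21.94, since those intervals surround the posterior mean and not the TPM.

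Kinase-coding transcripts held 54.69% and 53.19% of Ntrk3 coding TPM, a mean of 53.94% ± 1.06 (SD, n = 2). They stood at 34.45 ± 0.707 TPM against 28.27 ± 0.226 for the truncated form, a ratio of 1.22 ± 0.0348, and 1.18 ± 0.00708 from FASTQ. The share itself was 47.95% from FASTQ, where the short, incomplete coding transcript Ntrk3-212 was given 11.55 and 6.002 TPM against 0 by alignment. Ntrk3-214, also short and incomplete and named after its values were seen, was given 0 and 5.243 TPM from FASTQ against 0 by alignment. With all Ntrk3 transcripts in the denominator it was 43.62%, because Ntrk3-220, a transcript without a coding sequence listed at 0 from FASTQ, had 9.55 and 12.41 TPM by alignment. From expected counts the share was 81.15%. Ntrk3-201 is 19703 bases long, of which 16600 follow the coding sequence, and Ntrk3-202 is 3977 bases long, so most Ntrk3 counts fell on the former. The side of 50% on which the TrkC share lay therefore changed with the table and the denominator.

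Of the kinase-coding Ntrk3 TPM, transcripts with an insert held 34.62% and 34.55%. Their share was 29.69% from FASTQ and 6.52% from expected counts. Ntrk3-205 ends 152 bases after its coding sequence and Ntrk3-201 continues for 16600, so the split rests on transcript ends as well as on the insert, and reads over the insert alone were not tested.

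Between the receptors, TrkB forms were the higher on either side. Kinase-coding Ntrk2 over kinase-coding Ntrk3 was 1.57 ± 0.0491, and the T1 end over truncated Ntrk3 was 1.497 ± 0.00402, with 1.72 ± 0.0142 and 1.57 ± 0.022 from FASTQ. By TPM, both receptor genes thus had similar ratios of kinase-coding to truncated RNA when only the T1 end was counted for TrkB. With all truncated forms of complete coding sequence, the ratio was 0.968 and 0.973 for Ntrk2 in the libraries. For Ntrk3 it was 1.243 and 1.194. From FASTQ it was 1.039 and 1.1 for Ntrk2, and 1.172 and 1.182 for Ntrk3. Kinase-coding shares of expected counts were 58.66% for Ntrk2 and 81.15% for Ntrk3. The similarity thus depended on the truncated forms counted and on the scale. By TPM, the TrkB forms were higher in both libraries and both tables.

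**Figure D3:**
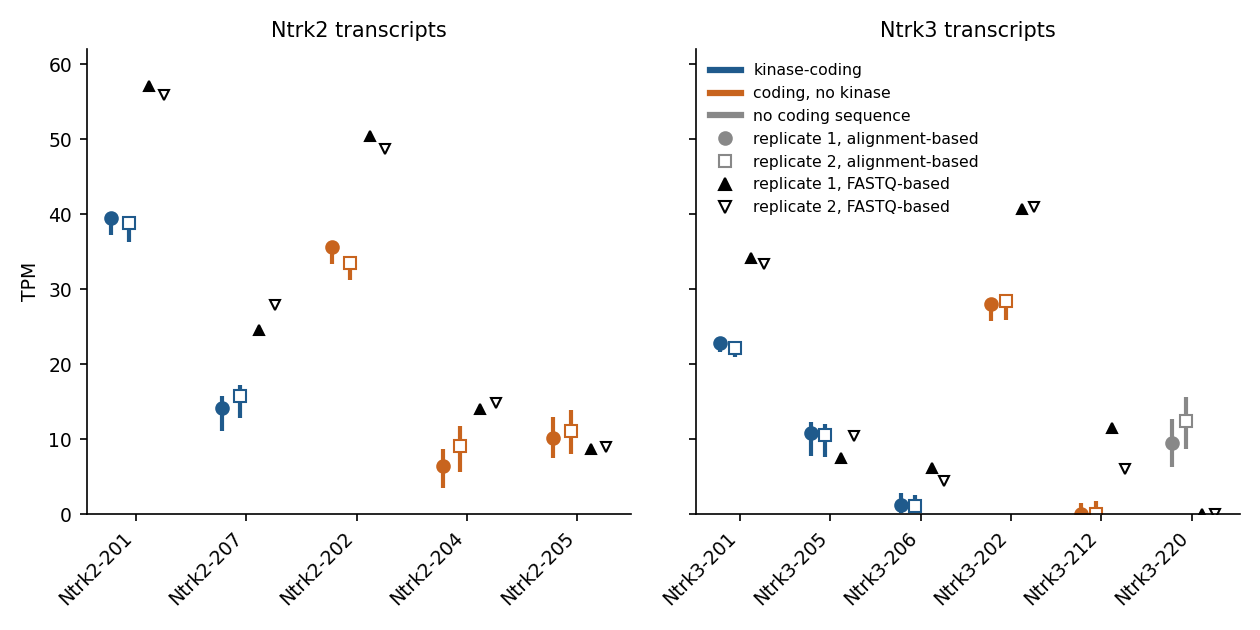
TPM of the named Ntrk2 (left) and Ntrk3 (right) transcripts in each library; circles and squares are alignment-based values coloured by class, vertical bars are the deposited intervals around the posterior mean, and triangles are FASTQ-based values. Ntrk2-201 and Ntrk2-202 lie between 33.51 and 39.56 TPM by alignment, Ntrk3-201 and Ntrk3-202 between 22.22 and 28.43, and Ntrk3-212 and Ntrk3-220 are listed at 0 by 1 of the tables each.

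Ngfr (ENSMUSG00000000120.6, chr11:95568818-95587735, minus strand) encodes p75, a receptor with a death domain that binds all neurotrophins. Its single transcript of 427 codons had 78 and 83 expected counts. The deposited intervals, 0.8306 to 1.293 and 0.9456 to 1.458 TPM, overlapped widely.

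Sort1 (ENSMUSG00000068747.14, chr3:108284082-108361511, plus strand) encodes sortilin, a sorting receptor of the Vps10 family that binds pro-neurotrophins and carries BDNF in neurons. Sort1-201 codes for 825 codons, and Sort1-203 for 858 through an extra exon whose skipping is known to depend on the RNA-binding protein encoded by Tardbp. That exon is printed in capitals because it is the coding difference between the forms.
Sort1-203 insert: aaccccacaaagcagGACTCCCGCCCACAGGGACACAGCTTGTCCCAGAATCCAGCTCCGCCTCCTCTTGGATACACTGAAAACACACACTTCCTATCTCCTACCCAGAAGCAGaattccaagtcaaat
It lies at chr3:108355472-108355570, 99 bases or 33 codons after codon 748. Sort1-201 had 61.53 and 65.21 TPM and Sort1-203 had 17.32 and 18.48. The form with the exon was the minor one in both libraries, with 21.97% and 22.08% of the TPM of the 2 forms. From FASTQ its share was 34.73% and 28.19%, again the minor form, with a wider spread between the libraries.

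Genes overlapping the members on mm10 held few reads, at most 140 counts for Gm9885 opposite Ntrk3 and 10 for Gm45346 opposite Bdnf. Over all 48 member transcripts, 13 were listed at 0 in both libraries by alignment and 10 from FASTQ.

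With 1 group, the replicates could be compared only with each other. A two-sided exact binomial test of expected counts with Benjamini-Hochberg adjustment over 12879 genes called 11.8% of them at an adjusted p under 0.05, and 1 of the 5 members tested. It sets the reads of 1 library against those of the other and says nothing of a condition. Sort1, with 11757 and 11568 counts, was higher in the library labelled male, replicate 2, by 0.09 on the log2 scale (adjusted p = 6.424e-05), a ratio of 1.06 with a 95% counting interval of 1.04 to 1.09. Such a ratio is small, and 59.2% of tested genes had a smaller absolute log2 ratio.

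For the other members the difference did not pass. Bdnf, with 1121 and 1162 counts, had a log2 ratio of 0.16 (exact binomial test, adjusted p = 0.0535) and an interval of the ratio of 1.03 to 1.22. Ntf3, with 105 and 128 counts, had 0.40 (adjusted p = 0.175 in the same exact test), with the ratio, 1.32, bounded between 1.01 and 1.72. These intervals are not adjusted over genes, so those of Bdnf and Ntf3 left out 1 though the adjusted test did not pass. Before adjustment the exact binomial test gave p = 0.00647 for Bdnf and 0.036 for Ntf3. Unadjusted p was under 0.05 for 3 of the 5 members tested, beside 2957 of all 12879 tested genes. The receptor genes Ntrk2 and Ntrk3 were the closest between the libraries. Ntrk2, with 15199 and 14001 counts, had -0.01 (adjusted p = 0.907), with the ratio bounded between 0.973 and 1.02, and Ntrk3, with 13015 and 11876, had -0.02 (adjusted p = 0.607), bounded between 0.962 and 1.01. Ngfr had a mean count under 100 and was not tested, and its ratio was 1.15 with an interval of 0.835 to 1.59.

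Markers of several cell types also differed between these libraries, and their part in the member differences was not tested. Of all tested genes, 6.28% were called higher and 5.5% lower in replicate 2. Small ratios are called where counts are high, as for the astrocyte gene Slc1a2, with 132304 and 131354 counts and a ratio of 1.07. Summed TPM was 1719 and 1867 for the 7 excitatory neuron genes, 4 of them higher in replicate 2, and 1217 and 1301 for 6 astrocyte genes, 3 higher and 1 lower. Myelin genes summed to 195 and 334.7 TPM, with 5 of 5 tested higher, and 5 choroid plexus genes to 12.67 and 353.8, with 2 of 3 tested higher. Nearly all of the latter difference was Ttr, at 8.02 and 340.1 TPM, while Kl had 1.76 and 2.08. Meningeal genes summed to 416.3 and 161.1 TPM, with 3 of 4 tested lower. Most of that difference was Ptgds, at 332.9 and 85.14 TPM, while Dcn had 28.78 and 28.62. The 4 GABAergic genes, at 378.9 and 368.9, had 0 called and 0 at an unadjusted p under 0.05, beside 2957 of all 12879 tested genes. Microglial genes summed to 67.54 and 79.46 TPM with 3 of 4 higher, oligodendrocyte precursor genes to 150.2 and 147.3 with 2 of 4 lower, endothelial genes to 60.53 and 61.45 with 1 of 3 higher, and Cajal-Retzius genes to 58.59 and 49.24 with 1 of 2 tested lower. Pericyte genes, at 63.95 and 62.68, and peripheral neuron genes, at 4.46 and 3.72, had 0 called.

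**Figure D4:**
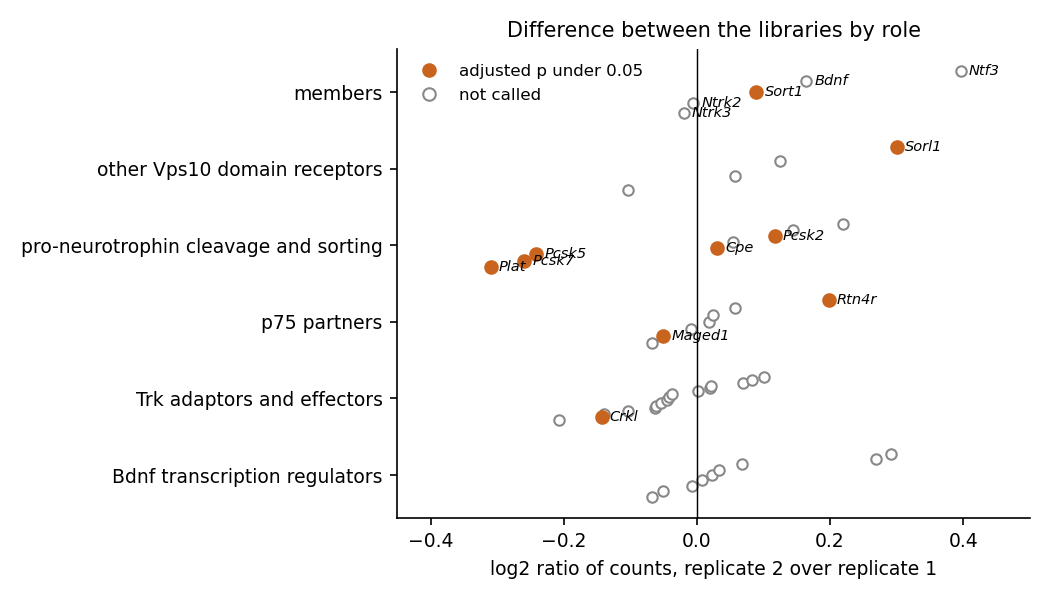
Log2 ratio of scaled counts, the library labelled male, replicate 2, over replicate 1, for the tested members and pathway genes by role; filled points passed an adjusted p under 0.05 and open points did not. Members span -0.02 to 0.40 and only Sort1 is filled among them, and 9 of the 44 other genes are.

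Genes that act around the members were taken as 6 lists of 49 genes by role. Of 44 tested, 4 were higher and 5 lower in the library labelled male, replicate 2, none of them by 2-fold or more, beside 6.28% higher and 5.5% lower of all tested genes. Their median log2 ratio was 0.01, beside 0.0002 over all tested genes. Called genes other than the highest and lowest of a list are named here after their values were seen.

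Ntf5, a further TrkB ligand gene, had 0.1 and 0.03 TPM, under the detection level, and was not tested. The 4 Vps10 receptor genes beside Sort1 were all below it in level, as were 91.45% of detected protein-coding genes. Of the 4, the endosomal sorting receptor gene Sorl1 led at 35.41 and 43.78 TPM. Sorl1 was higher in replicate 2 (log2 ratio 0.30, exact binomial test, adjusted p = 6.64e-38). The other 3 were not called, down to Sorcs1 at 3.25 and 3.03 TPM.

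Genes for cleavage and sorting of pro-neurotrophins had the highest and the lowest levels of all lists. Cpe, a carboxypeptidase and sorting receptor of the regulated secretory pathway, had 1069 and 1093 TPM and was higher by 0.03 on the log2 scale. Plg, the plasminogen gene, had 0.02 TPM in both. Of 8 tested, 2 were higher, Cpe and the prohormone convertase gene Pcsk2 (57.57 and 62.12 TPM), and 3 lower, namely Pcsk5, Pcsk7 and Plat. Plat, the gene of tissue plasminogen activator, had 23.1 and 18.51 TPM with a log2 ratio of -0.31 (exact binomial test, adjusted p = 3.266e-05). The convertase gene Furin, at 24.03 and 23.23 TPM, was not called.

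All 7 genes for partners of p75 stood above Ngfr itself, as did nearly all detected protein-coding genes, of which 0.475% lay below Ngfr. The 7 ranged from the adaptor gene Traf6 at 5.94 and 5.72 TPM to Maged1, a p75-binding protein gene, at 235.3 and 227.4. Maged1 was lower (log2 ratio -0.05) and Rtn4r, the Nogo receptor gene, higher (0.20), and the other 5 did not pass. Of 16 Trk adaptor and effector genes, Kidins220, a Trk-binding scaffold, was highest at 149.7 and 154.1 TPM and Sh2b2 lowest at 6.03 and 5.25. Only the adaptor gene Crkl passed in that list, with a log2 ratio of counts of -0.14 (exact binomial test, adjusted p = 0.048), while its TPM went the other way, at 16.12 and 17.73. Of 9 genes for regulators of Bdnf transcription, 0 were called in the exact binomial test at an adjusted p under 0.05, beside 11.8% of all tested genes. At an unadjusted p under 0.05 in that test there were 0 of the 9, beside 2957 of all 12879 tested genes. With 9 genes, a count of 0 cannot show that this list was more stable than others. Mef2c led at 54.1 and 49.27 TPM and Nfatc4 was lowest at 1.77 and 2.26. Creb1, the gene of the factor named for promoter IV, had 21.28 and 22.36 TPM.

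FASTQ-based levels were higher for all members, as for most genes: the median log2 shift over 15085 genes was 0.60 in each library. Relative to that shift Ntf3, Ngfr and Ntrk2 differed by -0.03 to 0.00, while Sort1, Bdnf and Ntrk3 were lower, at -0.11, -0.16 and -0.16. The gene totals thus moved together between the tables to within those amounts. Larger disagreements lay in transcript splits, among them those of Bdnf, Ntf3, Ntrk3 and Sort1 given above. Single Ntrk2 transcripts moved as well. Ntrk2-204 had 14.07 and 14.91 TPM from FASTQ against 6.43 and 9.14 by alignment. Ntrk2-205 had 8.746 and 9.044 against 10.19 and 11.18. The T1 share of complete truncated Ntrk2 TPM was 82.88% from FASTQ and 75.83% by alignment.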

How the data were processed

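Total RNA from 2 libraries of 1 group was analysed. Per the deposited descriptions, the authors quantified transcriptome alignments to mm10 with GENCODE M21 and deposited expected counts, TPM, posterior mean TPM and interval bounds, a signal on the TPM scale. A further deposited table holds FASTQ-based estimated counts and TPM. Quantification tools, interval level and strand setting were not given in the sources used here. Antisense genes may therefore share reads. TPM was scaled by the authors over all rows, spike-ins included. The 97 spike-in rows and 26248 rows named only by a number were left out here. Rows named by a number held 2.809e-05% and 1.997e-05% of counts in replicates 1 and 2. All rows held 32035705 and 29747193 counts, and annotated genes 31920915 and 29640266 after rounding.

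Expected counts were rounded, scaled with TMM (edgeR 4.0.16, R 4.3.3) and tested where the mean count was 100 or more, with a two-sided binomial test, exact and adjusted by Benjamini-Hochberg over all such genes. Log2 ratios used a prior count of 0.5. Other steps used Python 3.11.15 and scipy 1.17.1. Tested on simulated data with 12889 genes tested, this comparison called 60% of genes changed 1.2-fold, 98% at 1.5-fold and 100% at 2- and 4-fold. It called 0.0473% of unchanged genes. The simulated counts held counting error alone, which the test assumes, so that low rate does not carry over to the real libraries. Changed genes were drawn above a higher minimum mean count than the test used. Intervals of the ratios cover counting error only, and p-values set the difference between the libraries against counting error alone. Neither holds any biological spread within a condition. No molecular identifiers are named, and duplicate reads were not examined.

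A transcript was called kinase-coding where its coding sequence reached the catalytic loop of the kinase or lay beyond it. Named transcripts hold at least 5% of their gene in either library by either table. Of each list the highest and lowest by mean TPM are named. Some single genes of the lists are not reported here, and list counts include all members. Route shifts use a pseudocount of 0.1 TPM. Members, lists and tests were chosen with earlier results of these data known. Alternatives were the FASTQ-based table, counts in place of TPM, other denominators, scalings (DESeq2 1.42.0 size factors, total counts), filters and pseudocounts, and single libraries. Posterior mean TPM, complete coding sequences and the alternatives for inserts were added after seeing the data.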

Additional observations from a re-analysis of the deposited data

How the results depend on the processing

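Scaling by DESeq2 size factors or total counts, a minimum mean count of 10 and FASTQ-based counts each left 1 member called, Sort1, with the same direction for each of the 5 members tested. On the TPM scale Ntrk2 and Ntrk3 turned from below to above 0, at log2 ratios of 0.03153 and 0.05507 with a pseudocount of 0.1 and 0.03128 and 0.05445 with 1. Neither was called. No paired analysis was possible because there was 1 group. Depth limits Ntf3 and Ngfr, with 78 to 128 counts per library. It also limits the split of Bdnf by first exon. Bdnf had 1121 and 1162 counts in all, and most of each transcript is common to all. Exons III, VII and VIII were assigned 20.3 to 49.23 counts each per library.

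From FASTQ, levels were 19.12 TPM for Bdnf, 6.849 for Ntf3, 167.6 for Ntrk2, 107.4 for Ntrk3, 1.789 for Ngfr and 118.3 for Sort1. With a pseudocount of 1 the shift between the tables relative to all genes was -0.1286 for Bdnf, -0.03415 for Ntf3, 0.01939 for Ntrk2, -0.1141 for Ntrk3, -0.1784 for Ngfr and -0.06097 for Sort1. The Ntrk2 kinase-coding share was 50.23% from FASTQ, 58.66% from counts, 48.31% from posterior means, 48.15% of all transcripts, and 49.24% of the protein_coding class or of complete coding sequences. For Ntrk3 it was 47.95%, 81.15%, 51.39% and 43.62% in the same first 4 settings. The Ntrk3 insert share was 29.69%, 6.524% and 34.35% from FASTQ, counts and posterior means, and the Sort1 exon share 31.46% from FASTQ and 22.12% from counts. FASTQ shares of Bdnf first exons were 9.159% (I), 18.31% (II), 0% (III), 13.87% (IV), 0.04359% (VII) and 9.917% (VIII). Counts gave 9.284% for exon I, and posterior means 8.562% (I), 1.289% (V) and 4.333% (VII). The cause was not tested, apart from the count shares, which are not divided by length.

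In single libraries the levels ranged from 13.25 to 14.77 TPM for Bdnf, 3.86 to 5.11 for Ntf3, 111.2 to 113.7 for Ntrk2, 77.52 to 80.54 for Ntrk3, 1.07 to 1.23 for Ngfr and 81.5 to 86.27 for Sort1.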
